A study of Mus musculus with 4 samples.

Results

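The collagen genes were examined as a family in maps of CTCF binding in the embryonic mouse forebrain. They were selected by symbol, as the protein-coding genes of the mm10 RefSeq table named Col, a number, a and a number. There were 44 of them among 21887 protein-coding genes on chromosomes 1 to 19, X and Y. The members and the gene lists used below were chosen with earlier results of these data known. Binding was read by ChIP-seq, the sequencing of DNA precipitated with an antibody to CTCF, at embryonic day 13.5. One CTCF library came from the medial ganglionic eminence (MGE), the ventral swelling that produces many cortical interneurons, and the other from the telencephalon. An input library without antibody accompanied each and is not analysed here. The labels used here give no genotype, strain, treatment or number of pooled embryos for any group, and their text on dissection describes the MGE for every sample, so the make-up of the telencephalon tissue is uncertain. The header of the telencephalon list also carries e14 in its track name.

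The deposited lists held 25625 MGE peaks and 31886 telencephalon peaks on the chromosomes used, each as a position without a score. With 1 CTCF library per tissue there is no replicate and no test between the tissues, and every comparison describes these libraries. The tissue, the library kit and any difference in calling cannot be told apart. The number of sequenced reads is unknown, so a missing peak does not show that CTCF was absent. Intervals are exact 95% Clopper-Pearson intervals and cover counting error only. Peak lists hold no expression values, so neither the identity of the tissue nor the activity of any collagen gene was checked.

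Collagens are triple-helical proteins of the extracellular matrix, and each chain has its own gene. Fibrillar collagens build the fibres of connective tissue, fibril-associated collagens decorate them, and type IV collagens form the sheet-like network of basement membranes, including those around brain vessels and under the pia. The type IV genes are known for their arrangement in head-to-head pairs, in which neighbouring genes are transcribed away from a common stretch between them. CTCF is a zinc finger protein that binds DNA at many loop anchors and domain borders, where it can stop cohesin.

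Among the 35 collagen genes with a promoter window, 3 had a peak in it, and each of these peaks was found in both lists. Their sequences are shown because they are the collagen start sites with a peak, and those of Col4a1, Col4a2, Col4a6 and Col4a5 because they are the start sites of head-to-head pairs with both strands known, and held none. Each is the RefSeq promoter window on GRCm38.p6, from 250 bases before to 50 after the annotated start site, written 5′ to 3′ on the strand of the gene. Capitals mark the letters CCNNNAGNNGGC, a loose form of the core that CTCF recognises, searched on both strands.
Col27a1, chr4:63215162-63215461, plus strand: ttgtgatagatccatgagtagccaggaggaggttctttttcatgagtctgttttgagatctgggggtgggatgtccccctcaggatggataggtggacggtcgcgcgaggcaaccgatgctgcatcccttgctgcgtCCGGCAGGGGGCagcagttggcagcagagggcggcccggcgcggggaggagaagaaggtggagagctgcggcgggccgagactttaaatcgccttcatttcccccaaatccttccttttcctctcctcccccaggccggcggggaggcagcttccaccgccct
Col6a2, chr10:76623355-76623654, minus strand: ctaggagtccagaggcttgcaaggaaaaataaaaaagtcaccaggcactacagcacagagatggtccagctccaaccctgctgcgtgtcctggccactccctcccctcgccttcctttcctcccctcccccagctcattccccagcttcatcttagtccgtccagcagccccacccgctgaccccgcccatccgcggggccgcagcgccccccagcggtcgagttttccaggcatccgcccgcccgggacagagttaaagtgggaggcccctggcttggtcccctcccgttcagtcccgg
Col23a1, chr11:51289670-51289969, plus strand: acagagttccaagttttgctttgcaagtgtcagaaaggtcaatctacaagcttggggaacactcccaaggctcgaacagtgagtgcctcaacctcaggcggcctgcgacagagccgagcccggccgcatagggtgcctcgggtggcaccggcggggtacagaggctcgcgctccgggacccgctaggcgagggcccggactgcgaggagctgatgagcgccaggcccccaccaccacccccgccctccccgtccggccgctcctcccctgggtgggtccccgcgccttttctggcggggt
Col4a1, chr8:11312777-11313076, minus strand: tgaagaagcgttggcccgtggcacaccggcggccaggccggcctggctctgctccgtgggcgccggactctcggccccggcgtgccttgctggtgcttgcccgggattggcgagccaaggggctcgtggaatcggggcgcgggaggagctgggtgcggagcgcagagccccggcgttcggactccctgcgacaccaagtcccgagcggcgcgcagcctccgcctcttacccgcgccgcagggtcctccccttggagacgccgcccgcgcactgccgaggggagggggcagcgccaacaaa
Col4a2, chr8:11312555-11312854, plus strand: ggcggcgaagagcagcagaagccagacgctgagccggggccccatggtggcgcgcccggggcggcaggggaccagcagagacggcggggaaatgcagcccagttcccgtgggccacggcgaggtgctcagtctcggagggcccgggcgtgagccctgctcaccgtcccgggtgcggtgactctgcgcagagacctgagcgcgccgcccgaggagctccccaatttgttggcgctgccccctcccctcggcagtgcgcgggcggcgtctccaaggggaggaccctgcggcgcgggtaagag
Col4a6, chrX:141474027-141474326, minus strand: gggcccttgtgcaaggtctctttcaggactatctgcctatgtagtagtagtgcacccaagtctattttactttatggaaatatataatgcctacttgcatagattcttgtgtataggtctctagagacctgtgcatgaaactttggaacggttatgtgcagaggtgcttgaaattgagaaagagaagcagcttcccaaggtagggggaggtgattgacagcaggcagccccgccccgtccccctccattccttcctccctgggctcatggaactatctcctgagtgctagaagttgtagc
Col4a5, chrX:141475169-141475468, plus strand: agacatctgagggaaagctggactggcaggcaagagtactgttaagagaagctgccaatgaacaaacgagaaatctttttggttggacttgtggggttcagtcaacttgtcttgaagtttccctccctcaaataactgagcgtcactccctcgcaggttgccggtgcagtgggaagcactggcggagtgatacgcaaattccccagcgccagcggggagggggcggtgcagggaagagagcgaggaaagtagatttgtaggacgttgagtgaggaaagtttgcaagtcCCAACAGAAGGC

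The 35 genes had 38 windows. Of these, 3 overlapped an MGE peak and 3 a telencephalon peak (7.89% each), against 4.61% and 8.08% of the 21263 windows of all protein-coding genes. The collagen share in telencephalon was thus near that of all protein-coding windows. At Col27a1, a fibrillar collagen of cartilage, the MGE peak (chr4:63215064-63215528, 465 bp) and the telencephalon peak (chr4:63215142-63215547, 406 bp) covered the whole window. The capitals in its sequence, CCGGCAGGGGGC at bases 138 to 149 counted from the 5′ end of the window, lay at chr4:63215299-63215310 and inside both peaks. At Col6a2, a chain of the beaded filaments around cells, the peaks were chr10:76623261-76623569 (309 bp) in MGE and chr10:76623175-76623556 (382 bp) in telencephalon, and they covered 215 and 202 bases of the window. At Col23a1, a transmembrane collagen, the MGE peak (chr11:51289387-51289839, 453 bp) covered 170 bases and the telencephalon peak (chr11:51289507-51289724, 218 bp) covered 55 bases, on the side upstream of the start site. A further telencephalon peak of 180 bp (chr11:51289197-51289376) lay 11 bp from the MGE peak without touching it, and telencephalon also had a peak 582 bp inside the Col27a1 start site (chr4:63215994-63216368, 375 bp) with no MGE overlap.

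**Figure D1:**
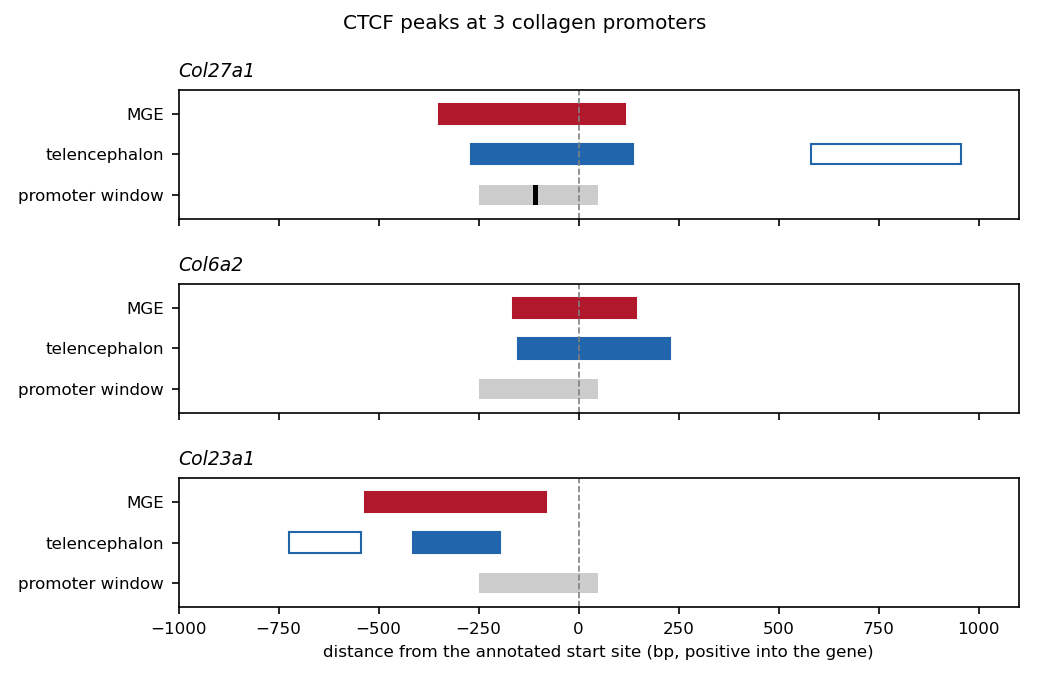
Positions of CTCF peaks at the 3 collagen promoters that held one, in bp from the annotated start site, positive into the gene. Filled bars are shared peaks (MGE red, telencephalon blue), open bars telencephalon peaks without an MGE partner, grey the promoter window and black the letters CCNNNAGNNGGC. Shared peaks spanned the start site at Col27a1 and Col6a2 and lay before it at Col23a1.

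The loose letters stood in 4 of 38 collagen windows (10.5%), against 8.61% of all 32851 windows. In this paragraph all windows are those of every gene type, not only the 21263 of protein-coding genes used for the peak shares. Over all genes they stood in 43.6% of the 1101 windows with a peak in both lists and in 6.82% of those with none. Besides Col27a1 they were found in Col13a1, Col11a1 and Col4a5, whose windows held no peak. The stricter letters CCANNAGNNGGC, every match of which is also a loose match, stood in 1 collagen window, that of Col4a5, and in 2.43% of all windows, or 17.9% of those with a peak in both lists. The Col6a2 and Col23a1 windows held neither form, which says only that these letters are not in these 300 bases. The median GC content was 59.8% over collagen windows, 61.7% over all windows with a peak in both lists and 52.7% over all windows. It was 61.7% at Col27a1, 64.3% at Col6a2 and 67.7% at Col23a1, and 74.0% at Col4a1, 73.7% at Col4a2, 63.3% at Col4a4, 48.3% at Col4a6 and 52.7% at Col4a5, which had no peak. A match of letters is a description and not a binding site.

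Most collagen genes carried CTCF peaks in the gene body. In MGE 33 of 44 did (75.0%, interval 59.7 to 86.8%), against 31.4% of all protein-coding genes, and in telencephalon 37 of 44 (84.1%, 69.9 to 93.4%), against 39.1%. All 33 MGE genes were among the telencephalon genes. Such overlap was also common over all protein-coding genes, with 5900 in both lists and 973 in MGE alone. A body peak shared between the lists, meaning an overlap of at least 1 bp, was found in 30 of 44 genes (68.2%, 52.4 to 81.4%), against 24.6% of all genes counted on MGE peaks and 24.5% counted on telencephalon peaks. With 50 kb added on each side, 43 of 44 genes had an MGE peak, against 80.3% of all genes, and 44 of 44 a telencephalon peak, against 82.8%. Col4a5 was the gene without an MGE peak in that window.

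Collagen genes are long, and length moved with these shares. Their median length was 114410 bp, against 17169 bp for all protein-coding genes. In the class of 100 to 200 kb, which held the most collagen genes, 17 of 18 had an MGE body peak (94.4%, interval 72.7 to 99.9%), against 73.8% of 1421 other genes, and 18 of 18 a telencephalon body peak (81.5 to 100%), against 79.4%. Over 200 kb, 6 of 8 had one in MGE (34.9 to 96.8%), against 91.5% of 982 other genes, and 8 of 8 in telencephalon, against 90.8%. Between 20 and 50 kb, 5 of 11 (16.7 to 76.6%) and 6 of 11 (23.4 to 83.3%) had one, against 35.9% and 46.5%. The interval of the collagen share took in the share of other genes in every class and list except telencephalon at 100 to 200 kb.

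**Figure D2:**
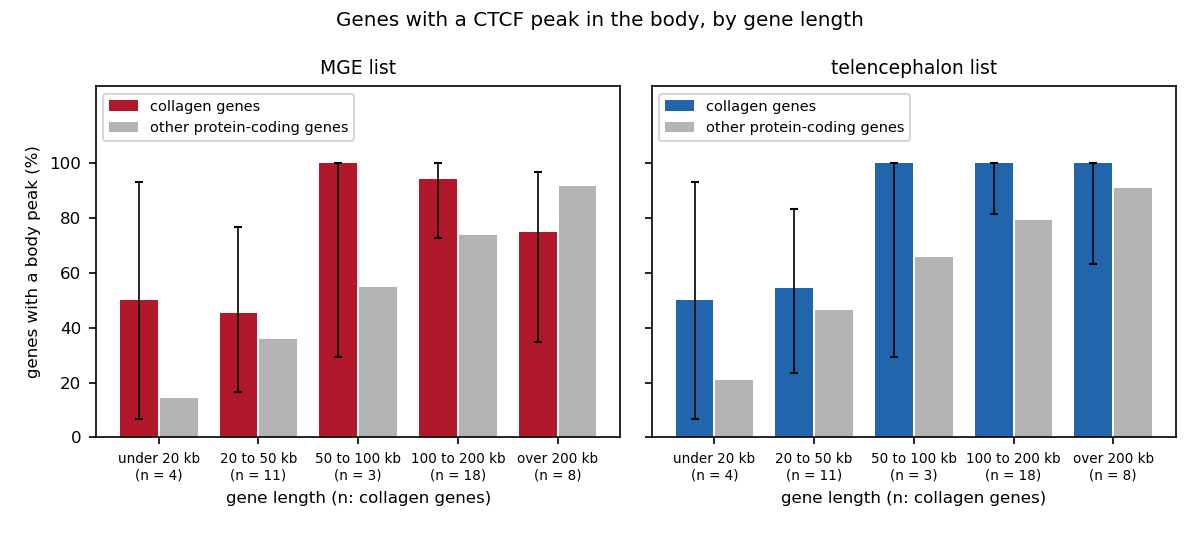
Share of genes with a CTCF peak in the body (%, y axis) by class of gene length (x axis), for collagen genes (coloured) and other protein-coding genes (grey), in the MGE and telencephalon lists. Error bars are exact 95% intervals for collagen genes; in the class of 100 to 200 kb, 17 of 18 and 18 of 18 collagen genes had a peak.

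Per length of DNA the collagen bodies were not dense in MGE peaks. Their union of 5.44 Mb held 60 MGE peaks, or 11.0 per Mb, against 11.3 per Mb of all protein-coding bodies. It held 100 telencephalon peaks, or 18.4 per Mb, against 15.7 per Mb. With the 50 kb flanks, 9.21 Mb held 129 MGE peaks (14.0 per Mb, against 11.7) and 201 telencephalon peaks (21.8 per Mb, against 16.4), which is 1.20 and 1.33 times the density around all protein-coding genes. With flanks of 10 kb the MGE ratio turned to 0.930 and the telencephalon ratio was 1.13.

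Gene ends were not rich in peaks. Within 1 kb of an annotated end, 5 of 44 genes had an MGE peak (11.4%, interval 3.79 to 24.6%), against 12.1% of all protein-coding genes, and 6 of 44 a telencephalon peak (13.6%, 5.17 to 27.4%), against 19.3%. Both counts were near the background. Col6a2, Col23a1, Col13a1 and Col1a1 had one in both lists. At Col13a1, a transmembrane collagen of muscle synapses and other cell junctions, it lay at the downstream end and was the widest MGE peak in any collagen window (chr10:61838304-61839104, 801 bp, against chr10:61838522-61839083, 562 bp, in telencephalon). At Col1a1, the major chain of skin and bone fibres, it lay 553 bp inside the lower-coordinate end (MGE chr11:94936777-94937286, 510 bp, and telencephalon chr11:94936858-94937347, 490 bp). A second shared peak followed, as chr11:94939271-94939548 in MGE and chr11:94939290-94939574 in telencephalon. Col5a1 (chr2:27887226-27887404, 179 bp) and Col12a1 (chr9:79721216-79721553, 338 bp) had an end peak in telencephalon and none in MGE. Col14a1 had an end peak in MGE, 969 bp outside the gene, and its telencephalon partner fell just beyond the limit, at 1069 bp. The promoter peaks of Col27a1 were not counted as end peaks. Its gene record starts at chr4:63214009, before the start site of its promoter window at chr4:63215412. Those peaks lay 1055 bp from that gene end in MGE and 1133 bp in telencephalon. The count at gene ends rests on few genes, and with 5 kb ends it was 16 in MGE and 25 in telencephalon.

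The fibrillar genes, which encode the fibre-forming chains, carried 15 MGE peaks in 7 of 11 bodies and 21 telencephalon peaks in 8 of 11. The shares of genes were 63.6% and 72.7%, against 31.4% and 39.1% of all protein-coding genes. Their median length was 45068 bp, and 35.9% and 46.5% of other genes of 20 to 50 kb had a body peak. However, 5 of the 11 were at least 100 kb long, and 73.8% and 79.4% of other genes of 100 to 200 kb had one. Of the fibrillar peaks, 10 in each list were shared. Col27a1 carried 3 MGE and 4 telencephalon peaks, 3 of them shared, and besides the promoter these lay at 77.4% and 87.4% of the way along the gene (chr4:63307383-63307839 and chr4:63319567-63319915 in MGE). Col11a1, a minor fibrillar chain of cartilage, had 2 MGE and 3 telencephalon peaks, with a shared one 1880 bp inside the start site in MGE (chr3:114032420-114032692). Col5a1, which regulates fibre width, had 2 MGE and 5 telencephalon peaks with 1 shared (chr2:27973877-27974173 in MGE). Col24a1 had 1 MGE and 3 telencephalon peaks, and none of them coincided. Its MGE body peak was 244 bp wide, the narrowest width in that list. Col1a2, the partner chain of Col1a1 in type I collagen (chr6:4505618-4541543), had no body peak in either list. Within 50 kb it had 1 peak per list, neither shared, at 7214 bp before the gene in MGE and at 4261 bp after it in telencephalon. Col5a3 had no MGE body peak and 1 unshared telencephalon peak of 178 bp, although its flanks held 4 shared peaks. Col2a1, the main cartilage collagen, and Col11a2 had no body peak in either list. Their flanks held 2 and 5 MGE peaks, all of them shared, and 4 and 8 telencephalon peaks.

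Fibril-associated collagens, which sit on the surface of fibres, had a body peak in 8 of 9 cases in each list, with 12 MGE and 22 telencephalon peaks, of which 8 were shared. This share of 88.9% stood against 31.4% of all protein-coding genes in MGE and 39.1% in telencephalon. Their lengths ran from 15760 to 355185 bp with a median of 75150 bp, against 17169 bp for all protein-coding genes. Of other genes, 14.3% and 21.0% had a body peak under 20 kb, and 35.9% and 46.5% at 20 to 50 kb. The shares were 54.7% and 65.9% at 50 to 100 kb, and 73.8% and 79.4% at 100 to 200 kb. Over 200 kb they were 91.5% and 90.8%. Col22a1, known at muscle and tendon junctions (chr15:71795795-72150979), had 3 MGE peaks and 8 telencephalon peaks. The shared ones were chr15:71917522-71918079 (558 bp) and chr15:72083691-72084155 (465 bp) in MGE, against chr15:71917264-71918010 (747 bp) and chr15:72083701-72083963 (263 bp) in telencephalon. Of the unshared telencephalon peaks, 4 stood side by side from chr15:72048219-72048488 to chr15:72052058-72052318, with the nearest MGE peak at least 31373 bp away. Col9a2 had 1 shared peak, 1346 bp inside the start site in MGE, and Col9a3, another chain of type IX collagen, had none in its body but 4 shared flank peaks. Col12a1 and Col14a1 had body peaks in both lists that did not coincide. The MGE body peak of each was 244 bp wide, the narrowest width in that list. Col20a1 had 1 peak in each list, shared and of similar width (457 bp in MGE and 469 bp in telencephalon), and Col16a1 had 1 shared peak and a further one of 224 bp in telencephalon.

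Head-to-head pairs of type IV collagen carried no peak where the genes meet. Across Col4a1 and Col4a2, Col4a4 and Col4a3, and Col4a6 and Col4a5, none of the 3 junctions, taken as the facing ends and 1 kb around them, had a peak in MGE or in telencephalon. Of 1009 head-to-head protein-coding pairs with facing ends at most 2 kb apart, 11.0% had a peak there in MGE and 21.5% in telencephalon, so most such pairs likewise had none. The pair Col4a4 and Col4a3 was not among the 1009, since Col4a3 had no window from which to take its strand. Its orientation is given here as background. The distance from the junction to the nearest peak was 59004 bp in MGE and 58981 bp in telencephalon for Col4a1 and Col4a2. It was 54633 bp and 14807 bp for Col4a4 and Col4a3. For Col4a6 and Col4a5 it was 317102 bp in MGE and 114971 bp in telencephalon.

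Col4a1 and Col4a2, whose products form the basement membrane network of most vessels (chr8:11198423-11449287, overlapping by 85 bp), held 5 MGE peaks and 7 telencephalon peaks. All 5 MGE peaks were shared. Col4a1 had 1 of them, at 51.8% of its length (chr8:11253499-11253801 in MGE and chr8:11253377-11253824 in telencephalon). Col4a2 had the other 4. One stood alone at chr8:11392615-11393184 (570 bp) in MGE and chr8:11392749-11393139 (391 bp) in telencephalon. The remaining 3 lay close together, at chr8:11419701-11420043, chr8:11421207-11421450 and chr8:11423281-11423524 in MGE, and at chr8:11419525-11420391 (867 bp, the widest telencephalon peak in any collagen window), chr8:11421218-11421542 and chr8:11423139-11423508 in telencephalon. These positions are 78.4% to 81.0% of the way along Col4a2 in MGE. The MGE peaks chr8:11421207-11421450 and chr8:11423281-11423524 were 244 bp wide, the narrowest width in that list. Shared peaks also bounded the pair, 10470 bp outside Col4a1 in MGE at chr8:11187535-11187953 and beyond Col4a2 at chr8:11486079-11486484.

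Col4a4 and Col4a3, which encode kidney, ear and eye basement membrane chains (chr1:82448419-82722059, overlapping by 114 bp), had 1 MGE peak each. Both were shared, at chr1:82476338-82476711 and chr1:82641667-82642104 in MGE and at chr1:82476239-82476633 and chr1:82641722-82642037 in telencephalon. Telencephalon added 2 unshared peaks in Col4a4. Col4a6 and Col4a5, which lie on X (chrX:141165403-141689236), had no MGE peak in 524 kb and 2 telencephalon peaks, neither shared. Those were chrX:141175207-141175677 (471 bp) in Col4a6 and chrX:141590341-141590609 (269 bp) in Col4a5. The bodies of this pair thus held 0 MGE and 3.83 telencephalon peaks per Mb, against 4.95 and 6.59 per Mb for all protein-coding bodies on X. Among 43 other X genes of at least 200 kb, 35 had an MGE body peak (81.4%) and 31 a telencephalon body peak (72.1%). A shared peak lay outside the pair, 8410 bp from Col4a6 in MGE (chrX:141156692-141156993) and 8215 bp from it in telencephalon (chrX:141156842-141157188), inside the neighbouring gene Atg4a or within 1 kb of it.

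**Figure D3:**
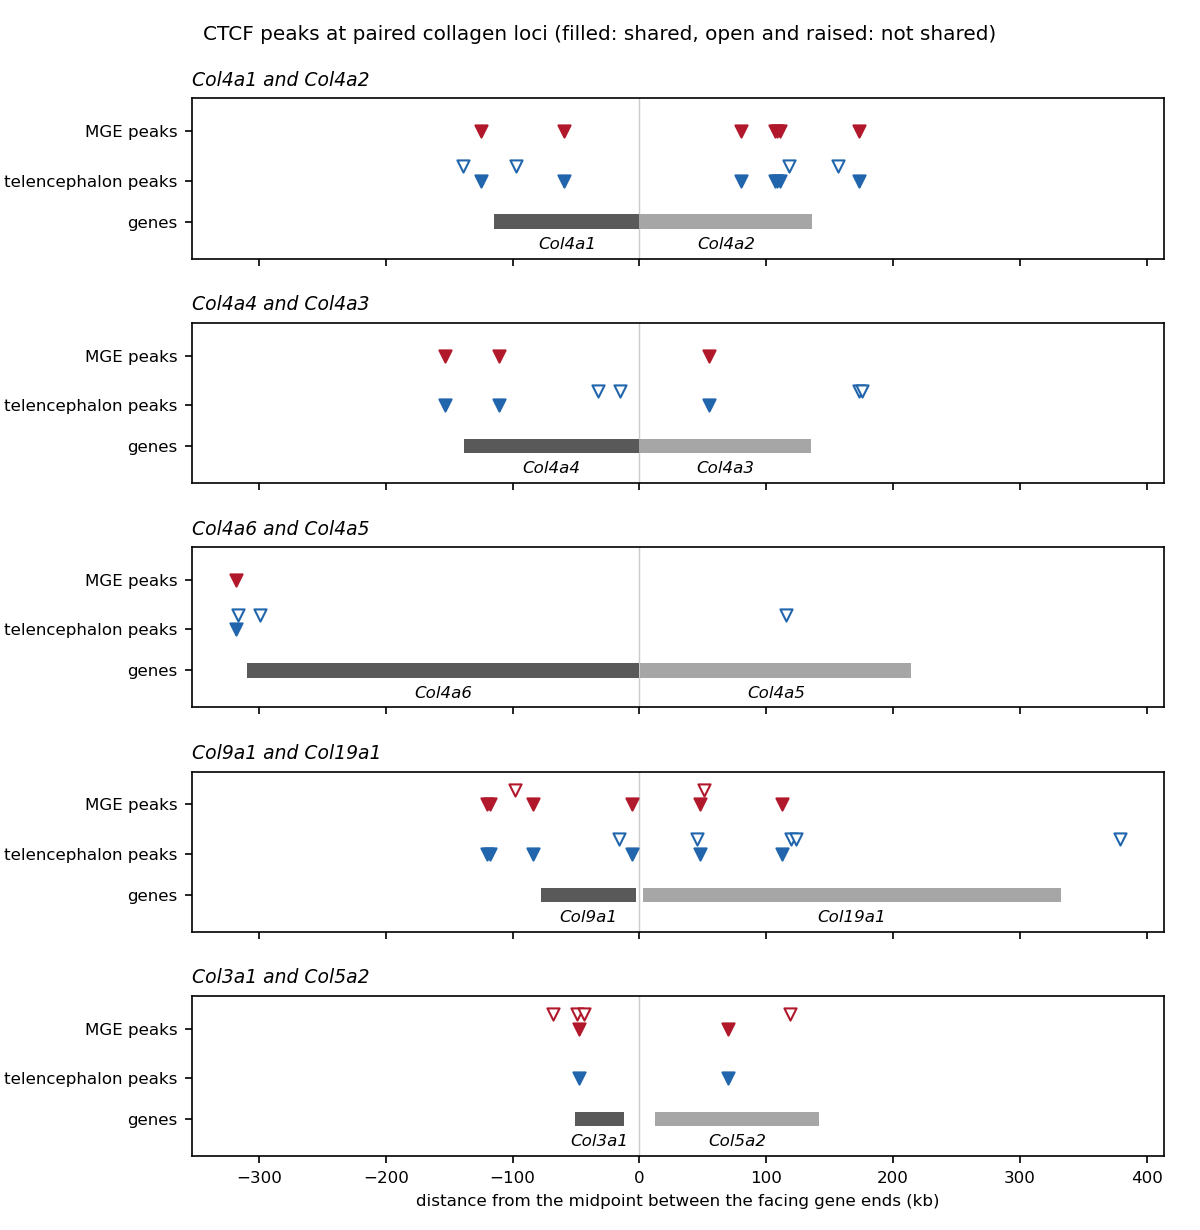
CTCF peaks at 5 collagen pairs, as distance in kb from the midpoint between the facing gene ends; grey bars are the genes and triangles the peaks (MGE red and above, telencephalon blue and below). Filled triangles are shared peaks and raised open ones unshared peaks. No peak stood within 1 kb of the facing ends of any type IV pair, and all 5 MGE peaks inside Col4a1 and Col4a2 were shared.

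Among the other collagen genes at most 50 kb apart, most junctions, with the stretch between the genes, held no peak. These stretches differed in length. The share among all neighbouring protein-coding genes in tandem or tail to tail was not counted. Col9a1 and Col19a1, both fibril-associated, meet tail to tail with 4944 bp between them and held 4 MGE and 7 telencephalon peaks, of which 3 were shared. The shared peak closest to the gap lay 3231 bp from it in MGE and 3266 bp in telencephalon, inside Col9a1. Col3a1, a fibrillar collagen of vessels and meninges and a known ligand of the receptor Adgrg1 in the developing cortex, lies 24624 bp from Col5a2. This pair reversed the usual order of the lists, with 5 MGE peaks and 2 telencephalon peaks in its span. The telencephalon peaks were both shared, and the unshared MGE peaks were chr1:45312580-45312919 (340 bp) and chr1:45317875-45318168 (294 bp) in Col3a1 and chr1:45480712-45481072 (361 bp) in Col5a2. The shared Col5a2 peak was 720 bp wide in MGE and 499 bp in telencephalon. The tandem genes Col6a6, Col6a5 and Col6a4 were spaced by 27823 and 27854 bp. Between Col6a5 and Col6a4 there was a shared peak (chr9:105988014-105988257 in MGE and chr9:105988102-105988305 in telencephalon), and between Col6a6 and Col6a5 there was none.

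The beaded filament genes of type VI collagen carried 6 MGE peaks in 4 of 6 bodies and 7 telencephalon peaks in 5 of 6, and 5 peaks of each list were shared. The shares of genes were 66.7% and 83.3%, against 31.4% and 39.1% of all protein-coding genes, but 3 of the 6 are 100 to 200 kb long, where 73.8% and 79.4% of other genes had a body peak. Col6a4 had 2 peaks in each list, both shared, and Col6a6 had only 1 telencephalon peak (chr9:105693813-105694107, 295 bp), with the nearest MGE peak 163683 bp away. Col6a3 had a shared peak 3283 bp inside the start site in MGE (chr1:90840277-90840688). Col6a1 had no body peak, although its neighbour Col6a2, 85161 bp away, carried the promoter peak described above. A shared peak lay 7263 bp from Col6a1 in MGE and 7240 bp in telencephalon. Among short-chain collagens, Col8a1 and Col8a2, which form lattices in vessel walls and the cornea, had 1 shared body peak each, and Col10a1, a marker of cartilage that turns to bone, had none. Col7a1, the anchoring fibril of skin, had no body peak in either list, but its flanks held 3 peaks in each list, all shared, near Uqcrc1 and Pfkfb4.

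Multiplexins, which carry heparan or chondroitin sulfate chains in basement membranes, had the most peaks per length of any class. Col15a1 and Col18a1 together held 5 MGE peaks (22.7 per Mb), all shared, and 8 telencephalon peaks (36.4 per Mb), on only 0.220 Mb of DNA. All protein-coding bodies held 11.3 and 15.7 per Mb. The ranking rests on these 2 genes and few peaks. Col18a1 is the source of the fragment endostatin. Its shared peaks were chr10:77082553-77082993 and chr10:77130540-77130999 in MGE. The transmembrane genes each had a body peak in both lists, 8 in MGE and 17 in telencephalon, with 7 shared. Their lengths ran from 45702 to 419527 bp with a median of 217610 bp. Of other genes, 91.5% and 90.8% had a body peak over 200 kb. The shares were 73.8% and 79.4% at 100 to 200 kb, and 35.9% and 46.5% at 20 to 50 kb. Col25a1, a neuronal collagen whose fragment is found in human amyloid plaques (chr3:130180358-130599884, 419527 bp and the longest of the family), had 2 MGE and 5 telencephalon peaks. One was shared, at chr3:130574691-130575292 (602 bp) in MGE and chr3:130574589-130575172 (584 bp) in telencephalon, 94.1% and 94.0% along the gene. Col23a1 had 3 MGE and 7 telencephalon peaks. Apart from its promoter, shared peaks lay at chr11:51534195-51534641 and chr11:51539582-51540110 in MGE. Col26a1 (chr5:136741759-136883376) held the most peaks of the family together with its flanks, 8 in MGE and 14 in telencephalon. Inside the gene all 4 MGE peaks were shared and 4 of 8 telencephalon peaks were. The transmembrane Col17a1, an anchor of skin cells, and Col28a1 each had 1 body peak per list, and both were shared.

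**Figure D4:**
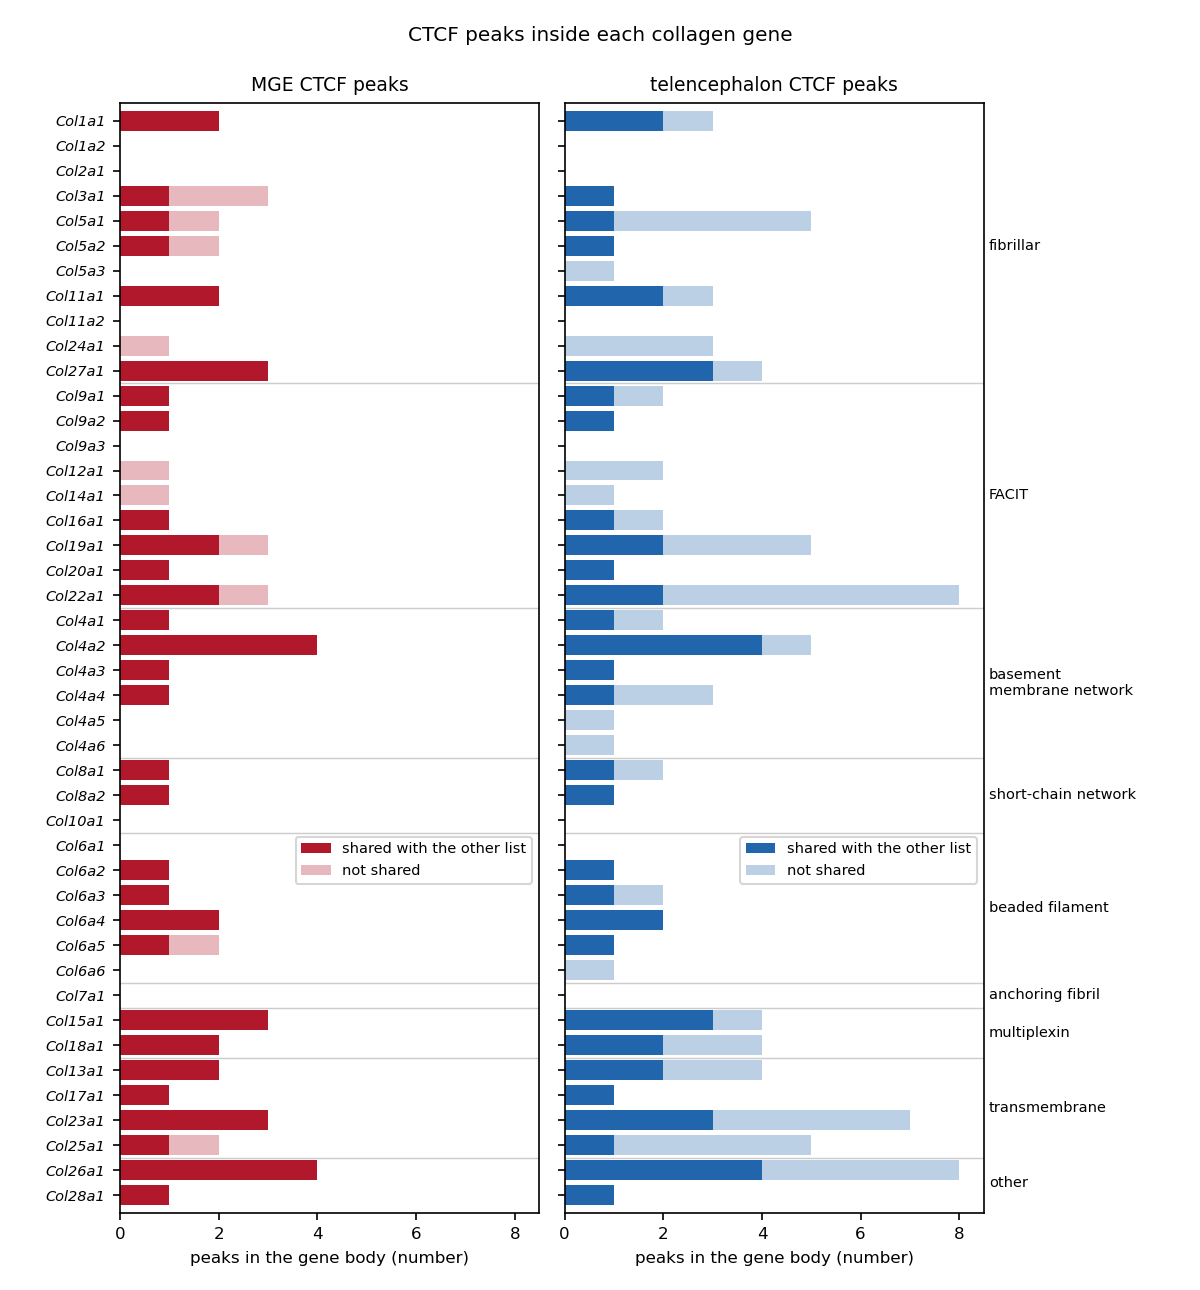
Number of CTCF peaks in the body of each of the 44 collagen genes (x axis), in MGE (left, red) and telencephalon (right, blue), grouped by class. Dark bars are peaks shared with the other list and pale bars those that were not; telencephalon reached 8 peaks in Col22a1 and Col26a1, and MGE reached 4 in Col4a2 and Col26a1.

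Per gene, window counts of the body and 50 kb on each side ranged over 0 to 8 in MGE with a median of 3 and over 1 to 14 in telencephalon with a median of 4.5. Telencephalon had more body peaks than MGE in 25 genes, equal numbers in 16 and fewer in 3. Those 3 were Col3a1, Col5a2 and Col6a5. The unshared MGE body peak of Col6a5 was 244 bp wide, the narrowest width in that list. The same count was not made over all protein-coding genes, and the telencephalon list is the longer one. The telencephalon list held 1.67 times as many peaks as the MGE list in collagen bodies, against 1.39 times in all protein-coding bodies and 1.24 times in the lists as a whole. These ratios have no replicate error.

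MGE peaks at collagen genes were mostly shared. In the bodies and flanks 105 of 129 were (81.4%, interval 73.6 to 87.7%), against 58.3% of all other MGE peaks (57.7 to 58.9%) and 68.1% of MGE peaks in or within 50 kb of any protein-coding gene. In telencephalon 105 of 201 were shared (52.2%, 45.1 to 59.3%), against 47.0% of all other peaks. Width moved with sharing, and MGE peaks at collagen genes were wide, with a median of 350.0 bp against 300.0 bp elsewhere. Above the MGE median width, 81 of 87 collagen peaks were shared (93.1%, 85.6 to 97.4%), against 81.1% of other peaks. At or below it, 24 of 42 were (57.1%, 41.0 to 72.3%), against 35.7%. The intervals of both collagen shares thus lay above the shares of other MGE peaks on the same side of the median width. Widths were not matched more closely than this, and the other peaks include those far from genes. In telencephalon the corresponding shares were 70.3% (61.2 to 78.4%) against 71.3%, and 26.5% (17.4 to 37.3%) against 22.8%. Peaks in the same gene are not independent, so these intervals are too narrow.

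**Figure D5:**
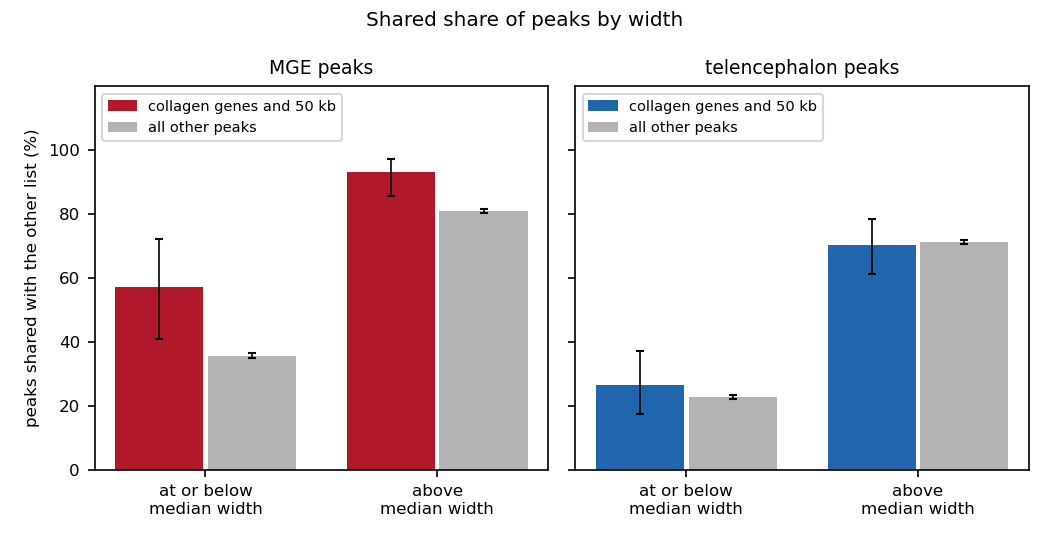
Share of peaks that overlapped a peak of the other list (%, y axis), for peaks at or below and above the median width of their list (x axis), in collagen genes and 50 kb around them (coloured) and elsewhere (grey). Error bars are exact 95% intervals; in MGE 93.1% of the wider collagen peaks were shared, against 81.1% of other wide peaks.

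In collagen genes of at least 100 kb, most placed body peaks lay nearer the end of the gene than its start. Only peaks with the midpoint inside the gene were placed. This left out the Col23a1 promoter peak of each list, which is at the start of a long gene. Over the 35 collagen genes whose strand the window table gave, 17 of 45 body peaks were nearer the start of the gene than its end in MGE (37.8%, interval 23.8 to 53.5%). The telencephalon list had 28 of 75 there (37.3%, 26.4 to 49.3%). In the 20 of at least 100 kb it was 9 of 34 in MGE (26.5%, 12.9 to 44.4%), against 48.6% in 1866 protein-coding genes of that length, and 20 of 62 in telencephalon (32.3%, 20.9 to 45.3%), against 47.0%. In the 15 shorter ones it was 8 of 11 in MGE (72.7%, 39.0 to 94.0%), against 48.5% in 15626 shorter protein-coding genes, and 8 of 13 in telencephalon (61.5%, 31.6 to 86.1%), against 49.3%. The lean toward the downstream part thus rests on the long genes, and the intervals of the short ones took in the share of all short genes. The intervals of long and short collagen genes overlapped in both lists. The protein-coding sets include the collagen genes, and peaks of one gene are not independent. Col4a2, Col19a1 and Col25a1 had all their MGE peaks nearer the end. Col15a1 went the other way, with its 3 shared peaks between 25.9% and 45.7% of its length. Neither exons nor introns were separated, since only gene ends were on hand.

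Genes that act on collagen were counted in the same way. All 57 genes of 4 lists were found, and 29 had a body peak in MGE (50.9%, interval 37.3 to 64.4%), against 31.4% of all protein-coding genes, and 33 in telencephalon (57.9%, 44.1 to 70.9%), against 39.1%. Length was not held equal in these shares. The median length of the 57 was 49532 bp, against 17169 bp for all protein-coding genes, and the longest, Lama2, spanned 635907 bp. From 20 to 50 kb 5 of 14 had a body peak in MGE (35.7%) and 6 of 14 in telencephalon (42.9%), against 35.9% and 46.5% of genes other than collagens. From 100 to 200 kb it was 6 of 11 (54.5%) and 9 of 11 (81.8%), against 73.8% and 79.4%, and under 20 kb 6 of 15 (40.0%) in each list, against 14.3% and 21.0%. At gene ends the counts were 11 (19.3%) and 13 (22.8%), against the backgrounds of 12.1% and 19.3%. Of the 18 modification and secretion genes, 7 had an MGE body peak and 8 a telencephalon one. P4ha1, a catalytic subunit of the prolyl hydroxylase that stabilises the helix, and P3h3, of the prolyl 3-hydroxylase family, had an end peak in each list, whereas Serpinh1, the collagen chaperone, and P4hb had no body peak in either. Processing and cross-linking genes had 9 of 13 in each list, and 9 had a shared one. Tll2, a tolloid-like proteinase, held 3 MGE and 4 telencephalon peaks with 3 shared. Receptors had 7 of 11 and 8 of 11, with 1 shared body peak at Adgrg1 and 2 at Mrc2, an endocytic collagen receptor. The other basement membrane genes had 6 of 15 and 8 of 15. Lama1, a laminin chain of embryonic basement membranes, had 2 MGE and 4 telencephalon peaks with 2 shared, and Lamc1 had no peak in its body or within 50 kb in either list.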

How the data were processed

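CTCF ChIP-seq peak lists of the MGE and the telencephalon, 1 library each, were analysed. The submitters' processing notes name mm10, Bowtie2 2.3.2 and MACS2 2.1.1.20160309. No source used here gives the threshold, control or filters, and the header track names end differently (p01 for MGE, p001 for telencephalon), so thresholds may differ. Per the labels' protocols, the MGE and telencephalon libraries were made with different New England Biolabs kits. The authors deposited a chromosome, start and end per peak. Peaks on other sequences (85 MGE and 93 telencephalon) were set aside. All positions are 1-based.

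Gene ends came from a RefSeq table on GRCm38.p6, which has mm10 coordinates, and strands and start sites from RefSeq promoter windows of the same build. Peaks were counted by an overlap of at least 1 bp with a gene body, with 50 kb around it, or with 1 kb on either side of a gene end. Shares by position along the gene used only peaks with the midpoint inside it. The overlap counts were tested on simulated intervals. No genome sequence was used, so the planned motif count over peaks was not made, and the letters were searched in promoter windows instead. All collagen genes could be named, with values in full for neighbouring pairs, gene-end peaks and the highest counts. The members and lists were chosen with earlier results of these data known. Python 3.11.15, pandas 2.3.3, numpy 2.4.6 and scipy 1.17.1 were used.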

Additional observations from a re-analysis of the deposited data

How the results depend on the processing

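Of 70 recomputed values, 59 stayed within 1.5 times the count, or within the counting interval of the share or density, and 11 moved. Gene-end counts moved most with the window, from ends of 500 bp (3 genes in MGE) to ends of 5 kb (16 in MGE and 25 in telencephalon). Shares of all protein-coding genes were counted for ends of 1 kb only. With 10 kb flanks there were 71 MGE and 123 telencephalon peaks, and the density ratios to all protein-coding genes were 0.930 and 1.13. With the wider 50% of peaks, paired loci held 13 MGE and 17 telencephalon peaks, against 21 and 27 with every peak. The telencephalon windows then held 119 peaks, and the MGE density ratio was 1.48. Fewer peaks and narrower windows lower counts by construction; the cause of the other shifts was not tested. The counts of genes with a body peak moved little, to no less than 29 in each list. No paired analysis was possible because each tissue has 1 CTCF library, and leaving out a replicate could not be done for the same reason. Read depth is unknown and limits which peaks could be called.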

Other observations

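Most peaks in the flanks of collagen genes lay neither inside another protein-coding gene nor within 1 kb of its ends. The same count was not made for the flanks of all protein-coding genes. Of the 69 MGE peaks in the flanks alone, 8 lay within 1 kb of an end of another protein-coding gene, 17 elsewhere inside one and 44 in neither place. Of the 101 telencephalon flank peaks the numbers were 13, 28 and 60. All 4 MGE flank peaks of Col9a3 were shared, 1 of them at or within 1 kb of Mrgbp and 1 of Dido1. A telencephalon peak of 482 bp with no MGE peak within 30260 bp lay 4445 bp from Col11a2 at Rxrb, a retinoid receptor gene (chr17:34033993-34034474). A 463 bp MGE peak between Col6a2 and Col6a1 (chr10:76661815-76662277) had its nearest telencephalon peak 38259 bp away. These single differences have no replicate, and their cause was not tested.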
